A study of Homo sapiens with 12 samples.

Results

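The response of the dabrafenib-sensitive melanoma line A375 was read from 6 of the 12 small RNA libraries of the series, chosen by their labels: 3 of A375 kept for 48 h in 200 nM dabrafenib and 3 of A375 kept for 48 h in 0.1% DMSO, the vehicle. A375 is an established human melanoma line with an activated BRAF kinase, and dabrafenib is an inhibitor of that kinase. The other 6 libraries come from A375-BIR, a line made resistant from A375 by culture in the inhibitor, in the same 2 media, and they enter the filter, the TMM factors and the estimate of the spread as well as one comparison at the end. The labels call the 3 libraries of a group biological replicates of 1 cell line. Each library has an expected count for 1881 miRNA precursor genes, and all of them entered, with the rows that resemble ribosomal RNA reported apart.

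BRAF sits between RAS and the kinases MEK and ERK, and ERK signalling drives growth and sets the activity of transcription factors such as AP-1, MYC and, in pigment cells, MITF. A miRNA is cut from a hairpin precursor and guides the silencing complex to messenger RNAs through its seed, the bases near its 5′ end that pair with the target, so that miRNAs with a common seed are taken as one family. Families with known ties to this pathway include let-7, which restrains RAS, MYC and HMGA2, miR-221 and miR-222, which restrain the cell cycle inhibitor p27, and miR-204 and miR-211, which are made from introns of TRPM genes of the pigment lineage.

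The mature sequences of the miRNAs on which the results turn, from RefSeq (GRCh38.p14), are given from 5′ to 3′ with the seed, bases 2 to 8, in capitals. The 4 sequences of the let-7 family share the seed GAGGUAG. The counts are of precursors and do not resolve their arms, so each call given here is that of the precursor. The precursors of let-7b and let-7c rose while those of let-7a and let-7i were not called. The miR-181 pair shows members of a family, one called and one not, with a common seed, the miR-204 and miR-211 pair is that of the pigment lineage, and the miR-221 and miR-222 pair fell together. The precursors of the remaining miRNAs, except miR-10a and miR-663a, fell. miR-10b, miR-887, miR-612 and miR-632 are named only.
hsa-let-7b-5p: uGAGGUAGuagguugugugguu
hsa-let-7c-5p: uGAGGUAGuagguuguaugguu
hsa-let-7a-5p: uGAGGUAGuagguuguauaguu
hsa-let-7i-5p: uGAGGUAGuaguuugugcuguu
hsa-miR-181b-5p: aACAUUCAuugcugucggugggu
hsa-miR-181a-5p: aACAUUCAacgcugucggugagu
hsa-miR-204-5p: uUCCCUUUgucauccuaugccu
hsa-miR-211-5p: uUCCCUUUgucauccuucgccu
hsa-miR-10a-5p: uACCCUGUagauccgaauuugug
hsa-miR-196a-5p: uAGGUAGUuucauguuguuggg
hsa-miR-221-3p: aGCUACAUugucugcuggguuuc
hsa-miR-222-3p: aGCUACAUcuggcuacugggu
hsa-miR-146a-5p: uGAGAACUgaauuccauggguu
hsa-miR-15b-5p: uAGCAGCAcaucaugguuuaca
hsa-miR-365b-3p: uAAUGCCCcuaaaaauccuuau
hsa-miR-584-5p: uUAUGGUUugccugggacugag
hsa-miR-767-5p: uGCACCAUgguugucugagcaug
hsa-miR-4521: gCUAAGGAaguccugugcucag
hsa-miR-663a: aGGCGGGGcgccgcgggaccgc

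After 48 h in dabrafenib, A375 held a larger share of let-7b, let-7c, miR-204 and miR-10b and a smaller share of miR-196a, miR-365b, miR-584, miR-887, miR-30d, miR-146a, miR-221 and miR-222. The fall of miR-365b rested on 0 to 4.25 counts per dabrafenib library, and its groups overlapped once the row of its copy MIR365A was added. Of the 175 precursors with enough counts to be tested, 44 (25.1%) passed at an FDR below 0.05 (edgeR, quasi-likelihood test, Benjamini-Hochberg adjusted), 32 of them higher (18.3%) and 12 lower (6.86%) in dabrafenib. Of the 165 tested precursors that do not resemble rRNA, 23 rose (13.9%) and 12 fell (7.27%). The rises lay between 0.71 and 2.89 on the log2 scale, 15 of them over 2-fold, and the precursors that fell decreased by 0.61 to 2.27, 8 of them over 2-fold. The remaining 9 rises were of rRNA-like rows. These counts take each precursor row by itself, although rows of miR-181b, miR-196a, miR-199, miR-509 and MIR3648 are copies or near copies and not separate measurements. In 74 of the 175 (42.3%) the 3 dabrafenib libraries did not overlap the 3 DMSO libraries, 43 higher and 31 lower, and these included 31 of the 32 rises and all 12 falls. In cultures measured in bulk, fewer cells with a miRNA and less of it in each cell cannot be told apart.

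The libraries differed in depth. The expected counts summed to 77264, 121802 and 86898 in DMSO (replicates 1, 2 and 3, the order used for all values) and to 47507, 51532 and 36955 in dabrafenib. Every dabrafenib library was shallower than every DMSO library (p = 0.1 by an exact two-sided permutation test, the smallest that 3 against 3 allow), and without the rRNA-like rows the mean total was 91496 in DMSO and 34877 in dabrafenib (SD 23151 and 4892, n = 3 each; p = 0.1 from the same exact test). A precursor without a count could still stand at 22.6 to 35.6 CPM (counts scaled to 1e6 per library, after TMM) in a DMSO library and at 77.5 to 98.8 CPM in a dabrafenib library, the level of 3 counts. Such limits cover counting error only, while the SDs and standard errors given with other values include the spread between libraries. The plot of depth shows both measures for all 12 libraries.

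**Figure D1:**
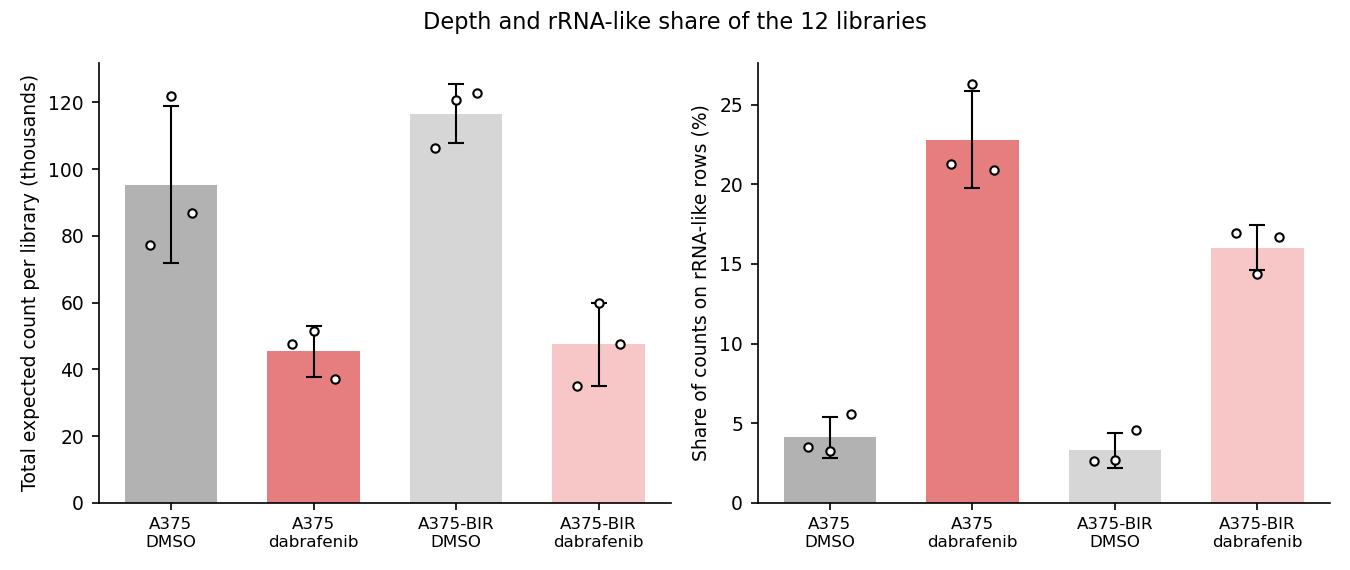
Total expected count per library (left) and share of the counts on rRNA-like rows in percent (right) for both lines in DMSO and in dabrafenib; points are libraries, bars are means and whiskers are SD (n = 3). The 3 A375 libraries in dabrafenib hold 36955 to 51532 counts, below the 77264 to 121802 in DMSO, and 20.9% to 26.3% of them lie on rRNA-like rows, against 3.22% to 5.59% in DMSO.

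The balance of rises and falls depended on how the libraries were scaled. TMM, which sets the level of a library by the bulk of its precursors, gave factors of 0.694 to 0.822 to the dabrafenib libraries of A375 and of 1.09 to 1.10 to its DMSO libraries, and CPM here always refers to the library total times this factor. The median log2 fold change of all 175 tested precursors was 0.14 with TMM, and each change below is read against it. With DESeq2's size factors the fold changes shifted by a median of -0.20, with library totals alone by -0.50 and with the rRNA-like rows left out by -0.13. The split of 32 higher and 12 lower then became 23 and 23, 18 and 44, and, over 165 precursors, 19 and 17. DESeq2's Wald test called 21 higher and 14 lower. With 1 CPM or more in 3 or more libraries as the filter, 538 precursors were tested and 19 were higher and 34 lower, and with no filter 839 were tested and 20 were higher and 27 lower. Both of these fits estimated their TMM factors anew, which shifted the fold changes by a median of -0.403 and -0.390, so that filter and scaling changed together. Under TMM and all 6 of these alternatives the same call was made for 8 rises that do not resemble rRNA (MIR10B, MIR204, MIR612, MIR632, MIR3652, MIR4449, MIR4657 and MIRLET7C), for 11 of the 12 falls (all but MIR15B) and for 9 rRNA-like rows in those alternatives that test them. All 6 moved the fold changes downward, which favours keeping falls over rises, so these counts do not compare the 2 directions. A fit without rRNA-like, exon and small RNA rows, chosen after seeing the data, shifted by 0.109. There MIR767 was not called (FDR = 0.0626 by the edgeR quasi-likelihood test). Outside these 6, a fit of the 6 A375 libraries alone shifted by -0.188, with 34 higher and 28 lower. A further fit, in which the copies of 1 mature miRNA were summed, estimated its own TMM factors, and its log2 fold changes were shifted by a median of -0.38 over the 131 precursors without a copy. Values from summed copies below carry this shift besides the summing.

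**Figure D2:**
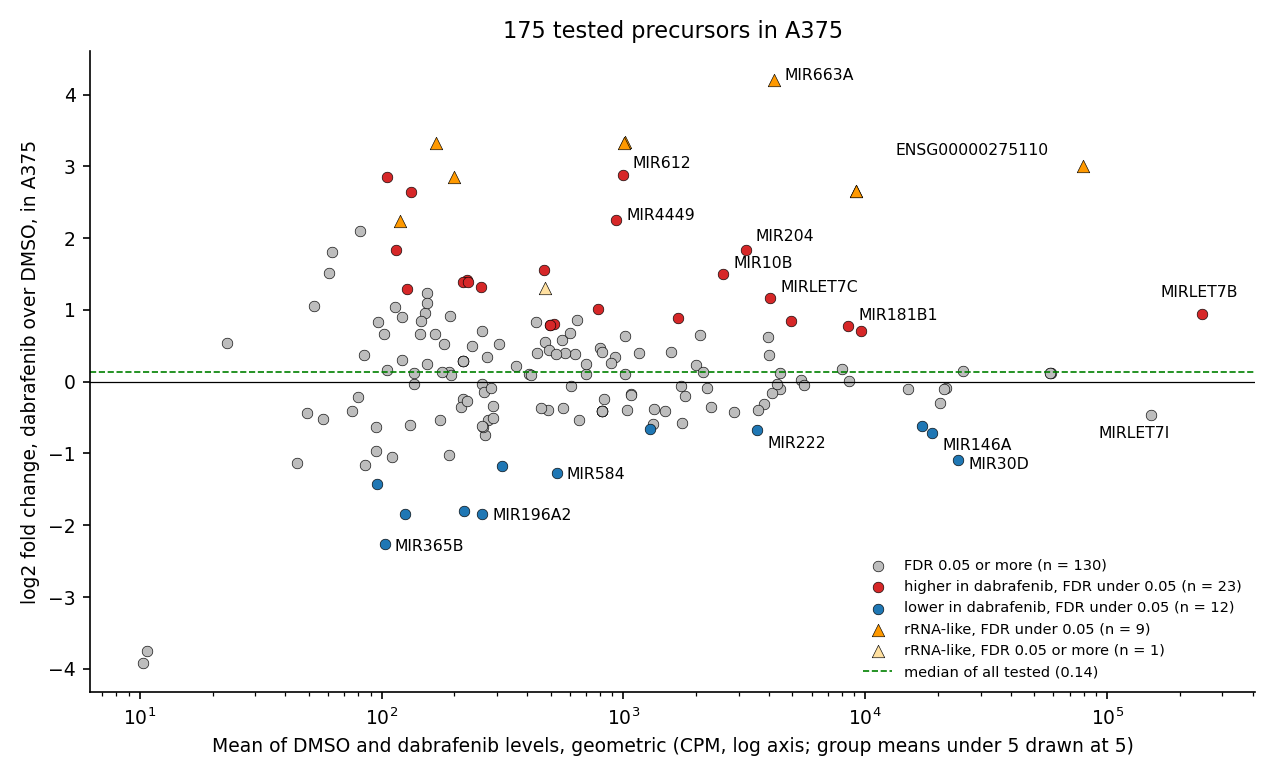
Log2 fold change in A375, dabrafenib over DMSO, against the geometric mean of the DMSO and dabrafenib levels in CPM (log axis) for the 175 tested precursors; colours mark calls at an FDR under 0.05 with TMM and triangles mark rRNA-like rows. Calls above and below 0 are spread over low and high levels, and MIR663A and ENSG00000275110, both rRNA-like, stand far above the median of 0.14. With library totals in place of TMM the points move by a median of -0.50.

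let-7b was the most abundant miRNA that rose. Its precursor MIRLET7B lies in an exon of the long non-coding RNA gene MIRLET7BHG on chromosome 22 (GRCh38, 46113686 to 46113768). MIRLET7B stood at 168514, 191541 and 171599 CPM in DMSO and at 301345, 390529 and 335874 CPM in dabrafenib. Every dabrafenib library was well above every DMSO library, and the dabrafenib libraries were the more spread. MIRLET7B rose by 0.95 on the log2 scale (standard error 0.15, FDR = 2.89e-04 by the edgeR quasi-likelihood test), and it was 0.53 (FDR = 0.0734 from the same test) under the filter of 1 CPM or more in 3 or more libraries, where the call was lost in a fit that also shifted the bulk by -0.403. MIRLET7B held 18.4%, 20.9% and 19.0% of all counts in the DMSO libraries and 24.5%, 27.1% and 27.6% in the dabrafenib libraries, so its share of the library rose also without any scaling factor.

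let-7c, which differs from let-7b outside the seed, rose too. MIRLET7C, in an exon of MIR99AHG on chromosome 21 (16539828 to 16539911), had 2694, 2830.2 and 2585 CPM in DMSO and 5428, 6936 and 5864 CPM in dabrafenib. The DMSO libraries lay close together, and all dabrafenib libraries lay above them, with library 2 the highest. Its log2 fold change was 1.17 (standard error 0.16, FDR = 6.05e-05 by the edgeR quasi-likelihood test). let-7i, the other very abundant member, went the other way without passing the test: MIRLET7I had 188180.0, 188681 and 158456 CPM in DMSO and 140591, 127985 and 119546 CPM in dabrafenib. The groups did not overlap, and its change of -0.46 on the log2 scale did not pass (standard error 0.22, FDR = 0.152 from the same test), or -0.96 (FDR = 0.00232) with library totals alone. MIRLET7I was called as a fall in 5 of 9 other settings, which besides library totals were the 2 other filters, summed copies and the 6 A375 libraries alone (FDR = 5.46e-06 to 0.0115). MIRLET7A1, with 58027, 50251 and 59899 CPM in DMSO and 59711, 64580.0 and 58505 CPM in dabrafenib, had overlapping groups. Its log2 fold change of 0.12 (FDR = 0.454 from the same test) turned to -0.08 with DESeq2's size factors and -0.38 with library totals (FDR = 0.00874 from the same test). Of the 12 let-7 precursors, all tested, 2 rose, 0 fell and 10 were not called, beside 13.9% rises and 7.27% falls among all 165. The let-7 median log2 fold change of 0.06 became negative, -0.07 to -0.44, under the other scalings. The same 2 rose with library totals while 7 others fell, among them the rows of let-7a and of let-7f, whose copies share reads. With DESeq2's size factors or with the rRNA-like rows left out, 1 fell. In the 6 A375 libraries alone and with no filter 2 rose and 3 fell, with the 1 CPM filter 1 rose and 3 fell, and with copies summed 2 rose and 3 fell of 9.

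miR-204, which is made from an intron of the ion channel gene TRPM3 (chromosome 9, 70809975 to 70810084), rose in every library. MIR204 was at 1875, 1596 and 1605 CPM in DMSO and at 5842, 8447 and 3854 CPM in dabrafenib. The dabrafenib libraries differed among themselves by more than the DMSO libraries did, and the lowest of them was still above the highest DMSO library. The rise was 1.84 on the log2 scale (standard error 0.29, FDR = 2.89e-04 by the edgeR quasi-likelihood test). Its relative miR-211, from an intron of TRPM1 (chromosome 15, 31065032 to 31065141), was too rare to be tested, with 0, 4 and 3 counts in DMSO and 5, 4 and 9 counts in dabrafenib. At 0, 30.1 and 31.3 CPM against 129, 112 and 297 CPM these libraries did not overlap either, but on so few counts the size of the difference is uncertain, and it was not tested.

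The HOX gene clusters hold miR-10 and miR-196, which restrain HOX messenger RNAs, and the members moved in both directions. MIR10B, in an intron of HOXD3 (chromosome 2, 176150303 to 176150412), had 1306, 1641 and 1657 CPM in DMSO and 3541, 5509.9 and 4019 CPM in dabrafenib. MIR196A2, in an intron of HOXC6 (chromosome 12, 53991738 to 53991847), had 546, 422 and 500.3 CPM in DMSO and 51.7, 168 and 198 CPM in dabrafenib, where it rested on 2 to 6 counts per library. The libraries of the 2 treatments were apart for both, with miR-10b high and miR-196a low in all 3 dabrafenib libraries. On the log2 scale the change was 1.502 for MIR10B (standard error 0.19, FDR = 2.87e-05) and -1.84 for MIR196A2 (standard error 0.33, FDR = 7.75e-04), both by the edgeR quasi-likelihood test. MIR196A1, in an intron of HOXB7, codes for the same mature miR-196a and shares its reads, and fell by 1.81 on the log2 scale. In the fit with summed copies, shifted as said above, miR-196a was at -2.29. MIR196B, which has the seed of miR-196a, had 106.8, 82.8 and 73.0 CPM in DMSO and 129, 112 and 264 CPM in dabrafenib, and its log2 fold change of 0.90 did not pass (FDR = 0.152 from the same test). MIR10A, at 1377, 1061 and 1282 CPM in DMSO and 2094, 2405 and 2405 CPM in dabrafenib, rose by 0.89 (FDR = 0.00311 from the same test) with TMM and by 0.39 (FDR = 0.166) with library totals, where the call was lost. It was also lost with the 1 CPM filter (0.48, FDR = 0.186), with no filter (0.50, FDR = 0.29) and with copies summed (0.51, FDR = 0.0828), all from the same test. The list of 5 thus had 2 rises, 2 falls and 1 not called, beside 13.9% rises and 7.27% falls among all 165. The 2 falls are the copies of miR-196a that share reads. The median of the list, 0.89, stayed above 0 under the other scalings.

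Several less studied miRNAs, most with annotated precursors in exons of other genes, rose too. MIR612, within an exon of NEAT1, the long non-coding RNA that builds paraspeckles (chromosome 11, 65444458 to 65444557), had 356, 301 and 438 CPM in DMSO and 1835, 3748 and 2504 CPM in dabrafenib. MIR4449, in an exon of the small nucleolar RNA host gene DANCR (chromosome 4, 52712682 to 52712747), had 463, 399 and 417 CPM in DMSO and 2042, 2377 and 1680.0 CPM in dabrafenib. MIR3652, in a coding exon of HSP90B1, which encodes a chaperone of the endoplasmic reticulum (chromosome 12, 103930425 to 103930555), had 237, 211 and 375.2 CPM in DMSO and 724, 895 and 791 CPM in dabrafenib. For each of these 3 the dabrafenib libraries were all above the DMSO libraries. Their log2 fold changes were 2.89, 2.26 and 1.55 (standard errors 0.27, 0.28 and 0.29; FDR = 1.48e-06, 2.87e-05 and 9.91e-04 by the edgeR quasi-likelihood test). A row within an exon also collects fragments of the host transcript, and the counts do not tell these from a mature miRNA. MIR632, in an intron of a long non-coding RNA gene on chromosome 17 (32350109 to 32350202), had 23.7, 30.1 and 62.5 CPM in DMSO and 310.2, 224 and 329 CPM in dabrafenib, a log2 fold change of 2.85 (FDR = 0.00134 from the same test), on 2 to 6 counts per DMSO library. MIR4657, in an untranslated region of PURB on chromosome 7 (44881748 to 44881800), had 35.6, 60.2 and 62.5 CPM in DMSO and 491, 448 and 65.9 CPM in dabrafenib. Here the third dabrafenib library was hardly above the DMSO libraries, and the rise of 2.64 (FDR = 0.0228 from the same test) missed the threshold without dabrafenib library 1 (FDR = 0.107) or 2 (0.0926) or without DMSO library 1 (0.07), 2 (0.0701) or 3 (0.0521).

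**Figure D3:**
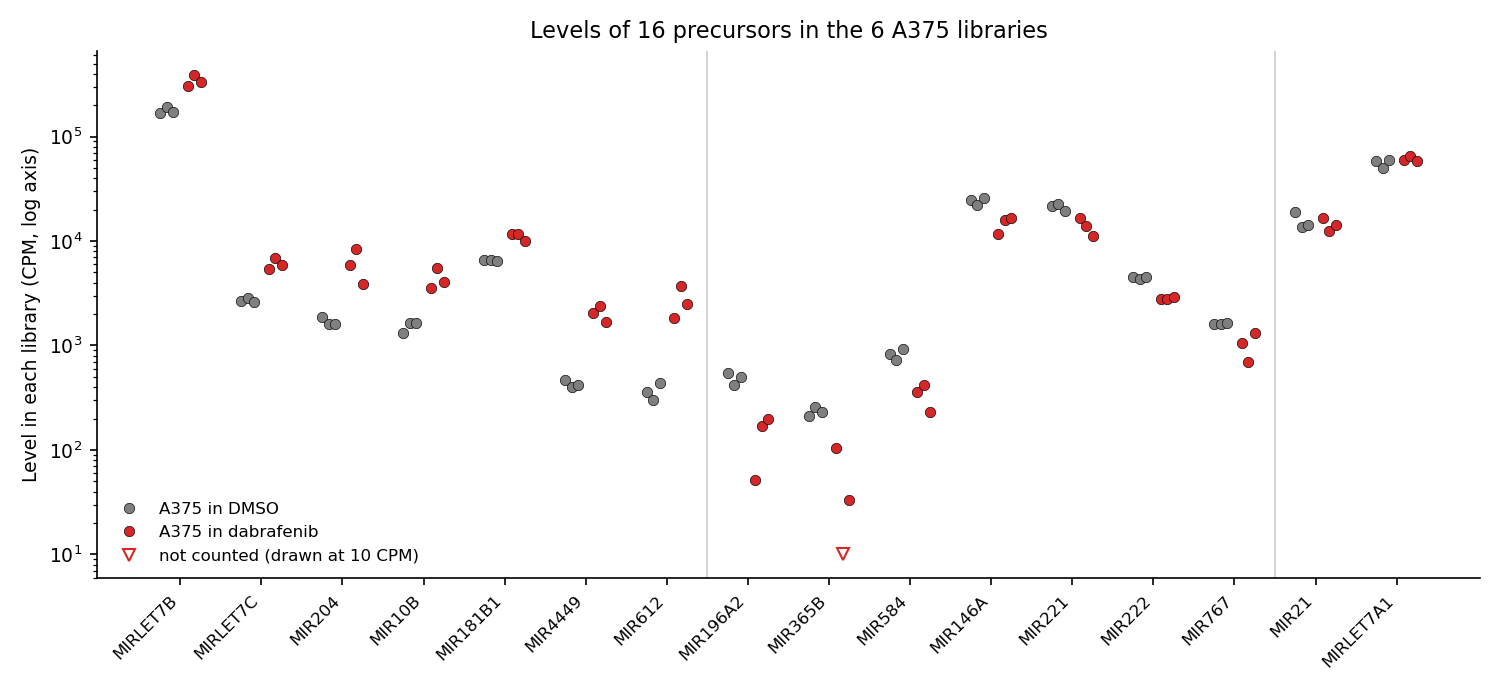
Levels in CPM (log axis) of 16 precursors in each of the 3 DMSO and 3 dabrafenib libraries of A375, with an open triangle at 10 CPM for a library without a count. From the left stand 7 that rose, 7 that fell and 2 that were not called, MIR21 and MIRLET7A1. The 2 groups of libraries are apart for all of the first 14. With library totals in place of TMM, MIR181B1 was no longer called and MIRLET7A1 and MIR21 were called lower.

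Among the falls, miR-221 and miR-222 are neighbours on the X chromosome, share a seed and are known as ERK- and AP-1-induced miRNAs. MIR222 (45747015 to 45747124) had 4558, 4358 and 4555 CPM in DMSO and 2792, 2769 and 2932 CPM in dabrafenib. MIR221 (45746157 to 45746266) had 21850.5, 22416 and 19438 CPM in DMSO and 16543, 13956 and 11200.2 CPM in dabrafenib. The 2 groups were apart for both, and the libraries within a group were closest for MIR222. On the log2 scale the change was -0.67 for MIR222 (standard error 0.15, FDR = 0.00379) and -0.61 for MIR221 (standard error 0.19, FDR = 0.0283), both by the edgeR quasi-likelihood test. The call of MIR221 was lost without dabrafenib library 2 (FDR = 0.0827) or 3 (0.134), DMSO library 1 (0.0776) or 2 (0.0851), or A375-BIR dabrafenib library 2 (0.08). miR-21, of the same list and known to restrain PDCD4, was not called: MIR21 had 18836, 13669 and 14383 CPM in DMSO and 16750.0, 12474 and 14329.7 CPM in dabrafenib, overlapping groups with a log2 fold change of -0.11 (FDR = 0.659 from the same test). It was 0.05 without DMSO library 1 and -0.59 (FDR = 0.0173 from the same test) with library totals. MIR31, with 309, 361 and 375.2 CPM in DMSO and 258, 195.8 and 165 CPM in dabrafenib, had groups without overlap and missed the threshold at -0.74 (FDR = 0.0736 from the same test), and it passed as a fall in 7 of 10 other settings, with DESeq2's size factors at -0.94 (FDR = 0.0138) for one (FDR = 0.0025 to 0.0395 over the 7), and without A375-BIR dabrafenib library 2 at -0.80 (FDR = 0.0497). Of the 7 miRNAs on the ERK and AP-1 list, 5 were tested, 0 rose, 2 fell and 3 were not called. The shares among all 165 were 13.9% rises and 7.27% falls. The median of the list, -0.61, stayed below 0, between -1.11 and -0.74, under the other scalings.

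miR-146a, which NF-kB induces and which restrains the adaptors TRAF6 and IRAK1, fell as well. MIR146A, in an exon of MIR3142HG (chromosome 5, 160485352 to 160485450), had 24521, 22017 and 25713 CPM in DMSO and 11709.5, 15802 and 16603 CPM in dabrafenib. All dabrafenib libraries were below all DMSO libraries. The log2 fold change of -0.71 (standard error 0.19, FDR = 0.0149 by the edgeR quasi-likelihood test) missed the threshold without dabrafenib library 1 (-0.58, FDR = 0.0772) or DMSO library 1 (-0.70, FDR = 0.0502) or 3 (-0.66, FDR = 0.0549). MIR146B, with the same seed, had 569.7, 339 and 521 CPM in DMSO and 724, 1007 and 527 CPM in dabrafenib. Its groups overlapped slightly, and the log2 fold change of 0.68 was not called (FDR = 0.137 from the same test). The NF-kB list of 3 had 0 rises, 1 fall and 2 not called, beside 13.9% rises and 7.27% falls among all 165. Its median was -0.05.

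The other falls were of less abundant precursors, apart from miR-30d. MIR584, in an intron of SH3TC2 (chromosome 5, 149062313 to 149062409), had 831, 730.1 and 928 CPM in DMSO and 362, 419.5 and 231 CPM in dabrafenib. MIR887, in an intron of FBXL7, an F-box gene on the same chromosome (15935182 to 15935260), had 427, 504 and 489.9 CPM in DMSO and 207, 195.8 and 231 CPM in dabrafenib. Both were lower in all 3 dabrafenib libraries than in any DMSO library, and MIR584 varied more than MIR887 in dabrafenib. The log2 fold change was -1.27 for MIR584 (FDR = 9.91e-04) and -1.17 for MIR887 (FDR = 0.00677), both by the edgeR quasi-likelihood test. MIR365B (chromosome 17, 31575411 to 31575521) had 214, 256 and 229 CPM in DMSO and 103, 0 and 32.9 CPM in dabrafenib, where it had between 0 and 4.25 counts per library. All dabrafenib libraries were below all DMSO libraries, and the fall of 2.27 on the log2 scale had a standard error of 0.57 (FDR = 0.00848 from the same test). It was -3.83 without dabrafenib library 1 and -1.68 without dabrafenib library 2. MIR365A codes for the same mature miR-365 and had too few counts to be tested alone. It had 20 counts over the DMSO and 10 over the dabrafenib libraries, where MIR365B had 74.25 and 5.25, so the rows were not near equal. MIR365A stood at 35.6, 60.2 and 93.8 CPM in DMSO and 51.7, 27.97 and 230.6 CPM in dabrafenib. The groups of MIR365A overlapped, and so did those of both rows added together. Their sum was at -1.40 (FDR = 0.0286 from the same test) in the shifted fit with summed copies.

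MIR4521 (chromosome 17, 8186945 to 8187004) had 237, 203 and 292 CPM in DMSO and 129, 27.97 and 32.9 CPM in dabrafenib. MIR767, in an intron of GABRA3 on the X chromosome (152393421 to 152393529) and expressed in tumours and testis, had 1590.4, 1596 and 1657 CPM in DMSO and 1059.8, 699 and 1318 CPM in dabrafenib. MIR15B, in an intron of the condensin gene SMC4 (chromosome 3, 160404588 to 160404685), had 166, 158 and 146 CPM in DMSO and 25.8, 83.9 and 65.9 CPM in dabrafenib. Each was lower in all 3 dabrafenib libraries, and the dabrafenib libraries were more scattered than the DMSO libraries. The log2 fold changes were -1.85, -0.66 and -1.42 (FDR = 0.0265, 0.0323 and 0.0351 by the edgeR quasi-likelihood test), and each call was lost in some fits with a library left out. Each was also lost with a block for the replicate number, at -1.83, -0.67 and -1.42 (FDR = 0.0528, 0.0537 and 0.0537 from the same test). MIR4521 was lost without dabrafenib library 2 (-1.48, FDR = 0.127) or 3 (0.105) or DMSO library 1 (0.0573) or 3 (0.075), and was at -2.95 without dabrafenib library 1. MIR767 was lost, at -0.70 to -0.45, without dabrafenib library 1 (FDR = 0.0606) or 2 (0.132) or DMSO library 1 (0.0712), 2 (0.0827) or 3 (0.0887). MIR15B was lost without dabrafenib library 1 (-1.04, FDR = 0.218) and, at -1.52 to -1.39, without dabrafenib library 3 (FDR = 0.077), DMSO library 1 (0.0712), 2 (0.0826) or 3 (0.0619) or A375-BIR DMSO library 1 (0.0537), and with DESeq2's Wald test (adjusted p = 0.0756).

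MIR30D, the most abundant precursor that fell, had 31832, 49091 and 24744 CPM in DMSO and 18017, 16474 and 14923 CPM in dabrafenib. The DMSO libraries spread widely and the dabrafenib libraries did not, and the lowest DMSO library was still above the highest dabrafenib library. MIR30D fell by 1.10 on the log2 scale (standard error 0.20, FDR = 8.72e-04 by the edgeR quasi-likelihood test). Of the 6 miR-30 precursors, all tested, MIR30D fell, 0 rose and 5 were not called, beside 13.9% rises and 7.27% falls among all 165. The miR-30 median of 0.36 turned to -0.14 with library totals.

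The remaining 14 rises that do not resemble rRNA, and MIRLET7B in 1 filter, passed with TMM and not under every alternative. miR-181b, which the study follows, is among them. MIR181B1, in an intron of MIR181A1HG (chromosome 1, 198858873 to 198858982), had 6528, 6556 and 6420.4 CPM in DMSO and 11684, 11691 and 10080.2 CPM in dabrafenib. Its copy MIR181B2 on chromosome 9 had 7632, 7264 and 7671 CPM in DMSO and 12614, 13117 and 11068 CPM in dabrafenib. The libraries within a treatment were nearly equal and the treatments far apart. With TMM the log2 fold changes were 0.78 and 0.71 (FDR = 6.16e-04 and 9.44e-04 by the edgeR quasi-likelihood test), and with library totals 0.28 and 0.20 (FDR = 0.122 and 0.222), and the call was also lost in the fit with summed copies (0.36, FDR = 0.0803 from the same test), where the scaling had moved by -0.38 as well. Both calls were lost too with the 1 CPM filter (0.36 and 0.29, FDR = 0.285 and 0.442 from the same test). With no filter they were lost at 0.38 and 0.31 (FDR = 0.379 and 0.511), and both fits had moved the scaling. MIR181A1, in the same intron as MIR181B1, had 24652, 21588 and 20637 CPM in DMSO and 24763, 18851 and 19238 CPM in dabrafenib. These groups overlapped, with a log2 fold change of -0.09 (FDR = 0.677 from the same test) that was called as a fall with library totals (-0.58, FDR = 0.0171) and with copies summed (-0.48, FDR = 0.0417). Of the 5 tested miR-181 precursors 2 rose, 0 fell and 3 were not called, beside 13.9% rises and 7.27% falls among all 165. The 2 rises are the copies of miR-181b that share reads, and MIR181A1 and MIR181A2, neither called, are the copies of miR-181a. The miR-181 median of 0.67 was 0.15 with library totals. MIR224, which the study follows too, had 0 counts in all 6 A375 libraries.

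Among the other scaling-dependent rises, MIR25, an intronic miRNA of the replication helicase gene MCM7, had 4202, 3229 and 3554 CPM in DMSO and 7419, 6069 and 6259 CPM in dabrafenib. MIR199B, of a family known from mesenchymal cells, had 119, 135 and 146 CPM in DMSO and 336, 364 and 362 CPM in dabrafenib. MIR509-1, which lies with MIR509-2 and MIR509-3 on the X chromosome (147258760 to 147260625) in a miRNA cluster expressed in melanoma, had 356, 391 and 375.2 CPM in DMSO and 569, 643 and 758 CPM in dabrafenib. None of these 3 had overlapping groups. The log2 fold changes were 0.85, 1.39 and 0.80 (FDR = 0.00379, 0.0108 and 0.0218 by the edgeR quasi-likelihood test), and with library totals 0.36, 0.89 and 0.30 (FDR = 0.162, 0.0731 and 0.344 from the same test). The rows MIR199A1 and MIR199A2, at 1.39 and 1.42, share reads with MIR199B, as do the 3 rows of miR-509, at 0.80 to 0.81, with each other, and they are not separate measurements. In the fit with summed copies, shifted by -0.38, the 3 miR-199 rows were at 1.03 (FDR = 0.0248) and the miR-509 copies at 0.43 (FDR = 0.164). MIR345 rose from 154, 173 and 156 CPM to 284, 419.5 and 527 CPM, and MIR342, in an intron of the actin regulator gene EVL, from 83.1, 67.7 and 93.8 CPM to 207, 195.8 and 198 CPM. Both were apart between treatments and were called with TMM (1.31 and 1.30; FDR = 0.0358 and 0.0265 from the same test) but not with DESeq2's size factors (FDR = 0.0778 and 0.0535).

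Several of these calls passed narrowly and were lost with fewer libraries, most at a similar fold change. Those of MIR342, MIR199A1 and the unnamed precursor ENSG00000278791 (log2 fold change 1.83, FDR = 0.0265 by the edgeR quasi-likelihood test) were lost without any one of the 6 A375 libraries, with FDR up to 0.0924, 0.0926 and 0.0887 at log2 fold changes of 1.16 to 1.41, 1.29 to 1.46 and 1.64 to 1.94. MIR199A2 was lost without any of them but dabrafenib library 3 (FDR up to 0.0862). MIR345 was lost without DMSO library 1, 2 or 3 (FDR = 0.0924, 0.0854 and 0.0937), dabrafenib library 2 or 3 (0.103 and 0.161) or A375-BIR dabrafenib library 2 (0.0678). MIR509-1 and MIR509-2 were lost without DMSO library 1, 2 or 3 or dabrafenib library 3 (FDR = 0.07, 0.0701, 0.075 and 0.0858), and MIR509-3 also without dabrafenib library 2 (FDR up to 0.128). MIR99B, the only risen precursor with overlapping groups, at 724, 534 and 406 CPM in DMSO and 724, 1734 and 889 CPM in dabrafenib, had a log2 fold change of 1.01 (FDR = 0.0231 from the same test), which was 0.54 without dabrafenib library 2 (FDR = 0.196), and it was also lost without DMSO library 2 (0.0783) or 3 (0.0887).

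Members of one seed family were not always called together. Each let-7, miR-181, miR-146, miR-15 and miR-196 family held members that were called and members that were not. On chromosome 3, MIR15B fell while its neighbour MIR16-2, with the same seed, had 154, 120.4 and 125.1 CPM in DMSO and 155, 336 and 132 CPM in dabrafenib and was not called (0.66, FDR = 0.248 by the edgeR quasi-likelihood test). The libraries of MIR16-2 were alike except for a high dabrafenib library 2. Of 23 groups of tested precursors within 10000 bases of each other, 12 had no member called, 8 had called and uncalled members, 0 had opposite calls, and all members were called the same way in 3: MIR221 with MIR222, the 3 rows of miR-509, and the rRNA-like pair of MIR3648-2 and ENSG00000264063. Whether a member differed from its neighbour was not tested.

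**Figure D4:**
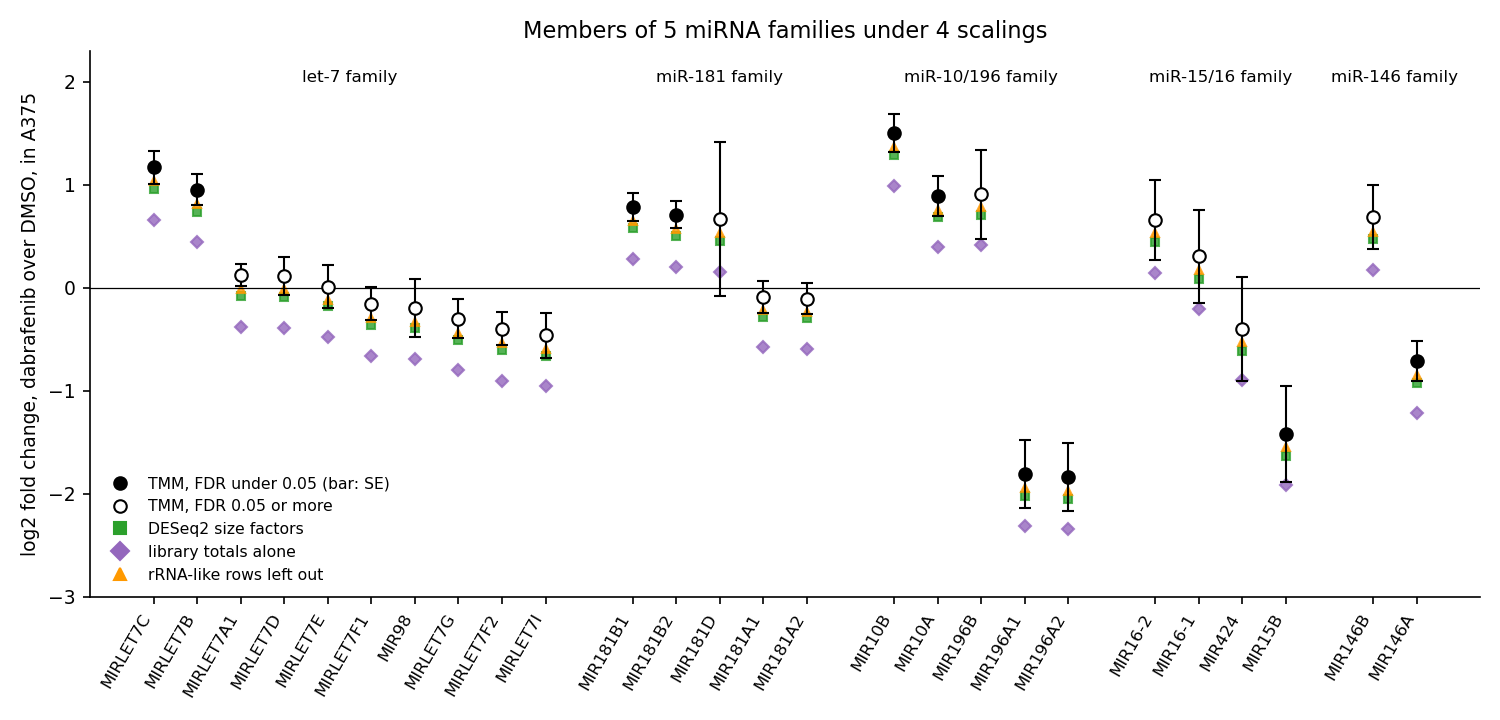
Log2 fold change in A375, dabrafenib over DMSO, of members of 5 miRNA families with TMM (black, bars are SE, filled where the FDR is under 0.05) and with 3 other scalings (colours). MIRLET7B, MIRLET7C, MIR181B1, MIR181B2, MIR10A and MIR10B are above 0 and MIR196A1, MIR196A2, MIR15B and MIR146A below 0 under all 4, while other let-7 members such as MIRLET7A1 go from 0.12 to -0.38 with library totals.

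The other lists are given beside 13.9% rises and 7.27% falls among all 165 tested precursors that do not resemble rRNA. The 15 precursors of the MYC-induced miR-17-92 cluster and its paralogs had 9 tested, 1 rise (MIR25), 0 falls and 8 not called, with a median of -0.31 that stayed below 0 under the other scalings; its most abundant member MIR92A1 stood at 5079.9, 5299 and 6671 CPM in DMSO and 5196, 5509.9 and 5864 CPM in dabrafenib, overlapping groups. The miR-15 and miR-16 cell cycle family had 4 tested, 0 rises, 1 fall and 3 not called, with a median of -0.05. All 3 tested members of the miR-506 to miR-514 cluster rose, which are the copies of miR-509 above. The single tested miRNA of the pigment-lineage list, MIR204, rose. Of the 3 tested precursors of the miR-193 and miR-365 clusters, 0 rose, 1 fell (MIR365B) and 2 were not called, with a median of -0.51, and MIR193B was at 0.70 (FDR = 0.190 by the edgeR quasi-likelihood test). The list of miR-99, miR-100 and miR-125, of which MIR99B and MIR100 share a seed, had 5 tested, 1 rise (MIR99B), 0 falls and 4 not called, with a median of -0.08. MIR125B1 at -0.54 (FDR = 0.132) passed as a fall in 7 of 10 other settings (-0.74, FDR = 0.0114 from the same test, with DESeq2's size factors, and FDR = 0.00533 to 0.0472 over the 7) and without A375-BIR DMSO library 3 (-0.60, FDR = 0.0388).

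No member was called with TMM in the lists of miR-29 (2 tested, median 0.12), miR-26 (3 tested, median -0.18, MIR26A2 at -0.18), p53-induced miRNAs (2 tested, median 0.21, MIR34A at -0.54), hypoxia-induced miR-210 (0.66), the cluster of miR-182 and miR-183 (2 tested, median -0.43), the miR-23, miR-24 and miR-27 clusters (5 tested, median 0.16), miR-148 and miR-152 (3 tested, median 0.35), miR-191 and miR-425 (2 tested, median 0.24) and the Drosha-independent miR-320 family (3 tested, median 0.40). With library totals the medians of miR-29, the p53 list, miR-23, miR-24 and miR-27, miR-148 and miR-152, miR-191 and miR-425 and miR-320 turned negative (-0.39, -0.30, -0.35, -0.17, -0.27 and -0.09), and those of miR-29, the p53 list and miR-23, miR-24 and miR-27 were slightly negative already with DESeq2's size factors (-0.09, -0.01 and -0.04). MIR182 was at -0.41 (FDR = 0.132 by the edgeR quasi-likelihood test) and passed as a fall in 8 of 10 other settings (-0.61, FDR = 0.0114, with DESeq2's size factors; FDR = 0.00232 to 0.0472 over the 8) and without A375-BIR DMSO library 3 (-0.46, FDR = 0.0493). None of the 3 precursors of miR-103 and miR-107 had enough counts to be tested.

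Rises and falls were also counted by the place of the precursor in the genome, and the places were not tested against each other. Beside 13.9% rises and 7.27% falls among all 165, 8 of the 71 in introns rose and 8 fell. Of the 35 in exons of long non-coding RNA genes, 6 rose and 3 fell, and of the 24 in exons of protein-coding genes, 2 rose and 0 fell. Of the 28 outside other genes, 7 rose and 1 fell, while the 7 that lie over another small RNA gene gave 0 calls in this test (all tested precursors had 58 at an unadjusted p under 0.05). The rises outside other genes include MIR199A1, MIR199B and the rows of miR-509, which share reads as said above and are not separate measurements. The median GC content was 49.5% for the 23 precursors that rose, 45.8% for the 12 that fell, 53.9% for the 130 that were not called and 77.8% for the 10 tested rRNA-like rows. With the rRNA-like rows and the rows in exons or over small RNA genes left out, an alternative chosen after seeing the data, 99 precursors were tested and 22 called, 15 higher and 7 lower, and all 22 were among the 44.

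Some precursors were counted in every DMSO library and in no dabrafenib library. With the expected counts rounded as in the fit, there were 16 of these and 0 of the reverse, in libraries where dabrafenib was the shallower group. They stand among 681 precursors with a rounded count in some A375 library. Of the 16, 1 had enough counts to be tested, MIR622, and it was not called (-3.92, FDR = 0.387 by the edgeR quasi-likelihood test). MIR3176, in CAPN15, had 26 counts in DMSO and MIR3200, in OSBP2, had 17. Against a limit of 3 counts over the 3 dabrafenib libraries, MIR3176 was at least 2.9-fold and MIR3200 at least 1.9-fold lower in dabrafenib. The other bounds computed for the 16 lay between 0.335 and 1.34, below or near 1, so those zeros do not show a fall. Of the 26 counts of MIR3176, 18 lay in DMSO library 2, without which its bound was 1.55-fold.

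Marker miRNAs were summed to see what cells the cultures held. Their calls stand beside 13.9% rises and 7.27% falls among all 165. The melanocyte list (6 listed, 3 tested, 2 rises and 1 fall, median 0.81) summed to 26883, 24162 and 27849.5 CPM in DMSO and 18404, 25172 and 21676 CPM in dabrafenib, mostly MIR146A, with MIR514A1 at 0. MIR146A is on the NF-kB list as well, so this sum cannot be read as a measure of the lineage. MIR211, of the same melanocyte list, stood at 0, 30.1 and 31.3 CPM in DMSO and 129, 112 and 297 CPM in dabrafenib, and was not tested. Epithelial miRNAs (7 listed, 0 tested, MIR205 the highest, MIR429 and MIR203A at 0) summed to 47.5, 90.3 and 52.1 CPM and then 181, 224 and 165 CPM. These sums were higher in every dabrafenib library. Blood miRNAs (6 listed, 1 tested and not called, MIR150 the highest, MIR451A and MIR486-1 at 0) summed to 59.3, 97.9 and 52.1 CPM and then 25.8, 280 and 231 CPM. The epithelial sums rested on 41 and the blood sums on 40.5 counts over the 6 libraries. Fibroblast and smooth muscle miRNAs (6 listed, 4 tested, 3 rises, all miR-199 rows, median 1.39) were higher in every dabrafenib library, at 546, 677 and 1032 CPM and then 1706, 1986 and 1416.5 CPM. Their highest member MIR143 had a log2 fold change of 0.83 (FDR = 0.190 by the edgeR quasi-likelihood test; 1.54, FDR = 0.00723, without DMSO library 3), and the defining MIR214 was at 0. Neuronal miRNAs (6 listed, MIR9-1 the highest, the 3 MIR124 rows at 0) summed to 225, 248 and 177 CPM and then 233, 252 and 98.8 CPM. Over the 6 libraries the endothelial MIR126 had 5 counts, the 6 muscle miRNAs 11 counts with MIR133B at 0, and the liver miRNA MIR122 had 0. The part of these markers in the changes above was not tested.

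The 5 highest log2 fold changes in A375 belonged to rRNA-like rows. These are the 17 rows whose precursor has a run of at least 18 bases in common with the 45S pre-rRNA, the long transcript from which the 18S, 5.8S and 28S rRNAs are cut; 15 had a count and 10 were tested. They held 3.49%, 3.22% and 5.59% of the counts in DMSO and 21.3%, 26.3% and 20.9% in dabrafenib. All dabrafenib libraries were far above all DMSO libraries, by 18.7 percentage points between the means (4.10% ± 1.30 and 22.8% ± 3.03, SD, n = 3 each; p = 0.1 by an exact two-sided permutation test, the smallest that 3 against 3 allow). Most of this lay on 1 row, ENSG00000275110 on the X chromosome (109054542 to 109054590), which ends in a stretch of 26 bases of the 28S rRNA.
ENSG00000275110, stretch shared with 28S rRNA: gaggggctctcgcttctggcgccaag
This row stood at 21993, 20985 and 40961 CPM in DMSO and at 194900.0, 289729 and 192149 CPM in dabrafenib. The dabrafenib libraries were higher by far, and the DMSO library 3 was about double the other DMSO libraries. Its log2 fold change was 3.01 (standard error 0.29, FDR = 1.66e-06 by the edgeR quasi-likelihood test).

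MIR663A, whose mature miR-663a lies whole within the 87 bases its precursor shares with the 5′ external spacer of the pre-rRNA, had 1044, 790.3 and 1105 CPM in DMSO and 17215, 21452 and 15449.7 CPM in dabrafenib. MIR3648-1, which is spacer sequence over its whole length, had 297, 301 and 354 CPM in DMSO and 2559, 4251 and 2866 CPM in dabrafenib. ENSG00000277437, likewise spacer over all of its 61 bases, had 3964, 3312 and 3617 CPM in DMSO and 21041, 28137 and 19502 CPM in dabrafenib. In each the dabrafenib libraries were several times above the DMSO libraries, with replicate 2 the highest. The log2 fold changes were 4.21, 3.34 and 2.66 (standard errors 0.22, 0.24 and 0.17; FDR = 3.19e-09, 7.64e-08 and 1.6e-08 by the edgeR quasi-likelihood test). MIR3648-2 and ENSG00000264063 are copies of the last 2 with nearly the same values (3.32 and 2.66). MIR663B, MIR4508 and MIR7704, which share shorter stretches, rose by 3.33, 2.86 and 2.25. ENSG00000283704, which shares 18 bases, was at 1.30 and did not pass (FDR = 0.117 from the same test), although its groups did not overlap, and it passed without A375-BIR DMSO library 3 (1.22, FDR = 0.022) and in the 6 A375 libraries alone (1.07, FDR = 0.0161). In all, 9 of the 10 tested rows rose and 0 fell, beside 18.3% rises and 6.86% falls among all 175. The authors had removed reads of rRNA before counting, and a read of a shared stretch cannot be assigned to the precursor or to the pre-rRNA from these counts.

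The resistant line gave a reference for the response. In A375-BIR, 36 of 175 (20.6%) precursors were called, and 21 were called the same way in both lines (15 higher, 6 lower), which is 47.7% of the A375 calls and 58.3% of the A375-BIR calls, with 0 called in opposite directions; the lines share no control library. All 9 rRNA-like rows that rose in A375 are among these 21, and apart from them 12 of the 35 A375 calls (34.3%) were shared, 6 higher and 6 lower. TMM gave the dabrafenib libraries of A375-BIR factors of 1.05 to 1.12, against 0.694 to 0.822 in A375. The difference between the responses, A375 minus A375-BIR, had a median over the 175 of 0.173 on the log2 scale, or -0.29 with library totals. This difference was itself tested and passed for 6 of 175 (3.43%), 5 of them above 0. Among these, MIRLET7C in A375-BIR had 15033, 14857 and 11112 CPM in DMSO and 12919.9, 13047 and 12873 CPM in dabrafenib, and MIRLET7B had 127340.0, 129343 and 86281 CPM in DMSO and 114410.0, 108997 and 133159 CPM in dabrafenib. Neither let-7 moved there, with overlapping groups and log2 fold changes of -0.08 and 0.06, where A375 had 1.17 and 0.95. The difference for MIRLET7B was called in 1 of 8 other settings and in 3 of 12 fits with a library left out (FDR up to 0.309 and 0.365), and that for MIRLET7C was lost with library totals (FDR = 0.0512) and without A375-BIR dabrafenib library 2 (FDR = 0.0662). MIR146A, which fell in A375, had 898, 1011 and 1412 CPM in DMSO and 1544, 1387 and 1985 CPM in dabrafenib in A375-BIR, a log2 fold change of 0.56 (FDR = 0.0746 by the edgeR quasi-likelihood test). Its difference between the lines was called in all 8 other settings and in 5 of 12 fits with a library left out (FDR up to 0.0733). For MIR204 and MIR365B, called in A375 and not in A375-BIR, the difference between the lines did not pass (FDR = 0.560 and 0.190 from the same test).

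**Figure D5:**
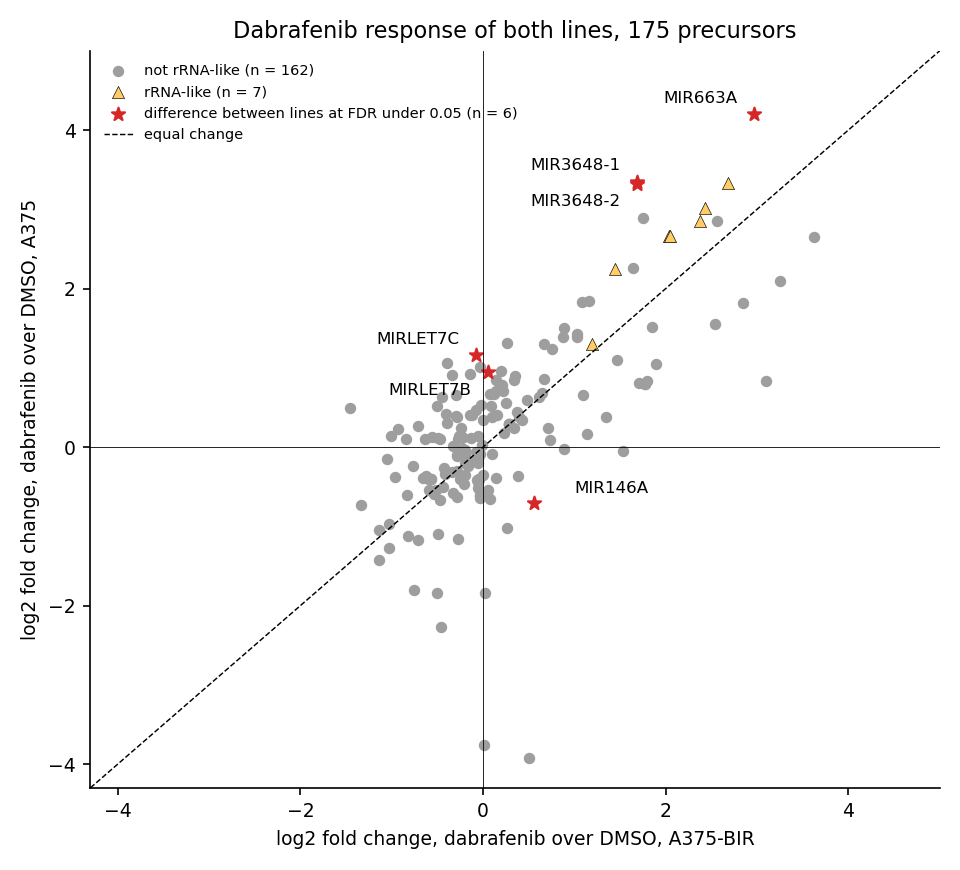
Log2 fold change, dabrafenib over DMSO, of the 175 tested precursors in A375 (vertical) against A375-BIR (horizontal), with the line of equal change dashed. Triangles are rRNA-like rows and stars the 6 precursors whose response differed between the lines at an FDR under 0.05. The stars of MIRLET7B and MIRLET7C lie near 0 for A375-BIR and at 0.95 and 1.17 for A375, and MIR146A is the star below 0 for A375.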

How the data were processed

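The expected counts of 1881 miRNA precursor genes were deposited by the authors, who trimmed the reads, removed reads of rRNA and other contaminants and counted with RSEM 1.2.25 on hg38. They were rounded and fitted with edgeR 4.0.16 in R 4.3.3: filterByExpr over 4 groups, TMM, 1 mean for each line and treatment over 12 libraries, the quasi-likelihood test and an FDR threshold of 0.05. Tables and plots were made with Python 3.11.15, pandas 2.3.3, numpy 2.4.6, scipy 1.17.1 and matplotlib 3.10.9. No library was left out. Each standard error of a log2 fold change is the size of that change divided by the square root of the F statistic of the quasi-likelihood test. Names and host genes come from GENCODE release 44, and the pre-rRNA and mature sequences from RefSeq.

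By a rule written before the fit, the named precursors are up to 12 with the highest and up to 12 with the lowest log2 fold change that passed, do not resemble rRNA and do not overlap, copies taken once; every tested rRNA-like row; the 5 with the most counts; up to 4 members of each list; MIR181A1, MIR181B1 and MIR224; and those that passed in the difference between the lines. MIR31, MIR196B, MIR622, MIR3176 and MIR3200 were named after their values were seen. Members and lists were chosen with earlier results of these data known. There are 22 lists of miRNAs by seed, locus or inducing factor and 8 lists of cell type markers, written before the fit.

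The alternatives were DESeq2 1.42.0 size factors, library totals, the rRNA-like rows left out, the DESeq2 Wald test, 2 other filters, a replicate block, copies of 1 mature miRNA summed, the 6 A375 libraries alone and each library left out in turn. One more, without rRNA-like, exon and small RNA rows, was chosen after seeing the data. Arms of a precursor are not resolved in these counts, and copies can share reads.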

Additional observations from a re-analysis of the deposited data

Results flagged for a closer look

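The dabrafenib response differed between A375 and A375-BIR for 6 precursors, by the test of the difference itself (edgeR quasi-likelihood test). The response of A375 minus that of A375-BIR, on the log2 scale, was 1.65 for MIR3648-1 (FDR = 0.011), 1.64 for MIR3648-2 (FDR = 0.011) and 1.24 for MIR663A (FDR = 0.0227), all rRNA-like. It was 1.25 for MIRLET7C (FDR = 0.0104), 0.89 for MIRLET7B (FDR = 0.0282) and -1.27 for MIR146A (FDR = 0.0227). The median difference over all 175 tested precursors was 0.173 with TMM and -0.29 with library totals. The cause of the 6 differences was not tested.

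The difference for MIRLET7B was called in 1 of 8 other settings and in 3 of 12 fits with a library left out (FDR up to 0.309 and 0.365). That for MIR146A was called in all 8 other settings and in 5 of 12 fits with a library left out (FDR up to 0.0733), and that for MIR663A in 4 of 7 and 7 of 12 (FDR up to 0.154 and 0.0765). Those for MIRLET7C and both MIR3648 copies were lost with library totals (FDR = 0.0512) and without A375-BIR dabrafenib library 2 (FDR = 0.0662).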

How the results depend on the processing

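Of the values of the 44 precursors called in A375, 455 of 528 with a library left out and 319 of 411 under the other settings kept direction and call, none reversed, and the others lost the call, for 15 and 18 precursors. The count of calls in A375 was 30 to 48 with a library left out and 22 without rRNA-like, exon and small RNA rows, an alternative chosen after seeing the data in which 99 are tested. It was 62 (34 higher, 28 lower) in the 6 A375 libraries alone and 45 of 156 (19 higher, 26 lower) with copies summed, where TMM was estimated anew. In A375-BIR it was 21 under that alternative and 20 to 46 with a library left out, 20 without its DMSO library 1, 22 without its DMSO library 2 and 22 without its dabrafenib library 2. For the difference between the lines, 6 were called, 1 with library totals, 2 with the rRNA-like rows left out and 0 under the added alternative by the edgeR quasi-likelihood test (21 at an unadjusted p under 0.05; the DESeq2 Wald test on all 175 called 6). With a library left out it was 2 to 6, 2 without A375-BIR dabrafenib library 2 and 3 without A375 dabrafenib library 1 or 2 or DMSO library 1. The cause was not tested.

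MIRLET7A1, at 0.12, reversed to -0.0826 with DESeq2's size factors, -0.38 with library totals, -0.0162 with the rRNA-like rows left out, -0.0825 in the DESeq2 Wald test, -0.29 with 1 CPM in 3 libraries, -0.27 with no filter, -0.26 with copies summed and -0.0720 in the 6 A375 libraries alone. MIR181A1, at -0.09, was 0.0208 under the added alternative, where MIR15B and MIR767 were not called (FDR = 0.0612 and 0.0626). MIR21, at -0.11, went from -0.22 without A375 dabrafenib library 1 to 0.0501 without A375 DMSO library 1, and MIR92A1, at -0.04, from -0.12 without A375 DMSO library 1 to 0.0889 without A375 DMSO library 3. The difference in the share of counts on rRNA-like rows was 16.9645 points without A375_DAB replicate 2 and up to 19.7 without A375_DAB replicate 3, and 18.2 and 18.6 with 16 or 20 bases as the limit, or 14.3 with the mature rRNAs alone. With a block for the replicate number, which the labels do not present as a pairing, 34 were called in A375, 26 in A375-BIR and 6 in the difference. The block ended the A375 calls of MIR4521, MIR767, MIR15B, ENSG00000278791, MIR199A1, MIR199A2, MIR342 and the rows of miR-509 (FDR = 0.0528 to 0.0769 by the edgeR quasi-likelihood test). Same-numbered A375 libraries of the 2 treatments correlated at -0.089, 0.019 and 0.062, and those of A375 and A375-BIR in DMSO at 0.105, 0.219 and 0.303.

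The dabrafenib libraries are shallow, and a count of 0 in them sets a limit of 77.5 to 98.8 CPM only. The smallest exact p with 3 against 3 libraries is 0.1. Whether the libraries were made from equal amounts of miRNA is not recorded in the counts, so the level of the whole set of miRNAs in dabrafenib was not measured, and changes are relative to the bulk of the precursors.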
